A study of Homo sapiens with 34 samples.

Results

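Lymphoma cell lines of germinal centre origin were compared with lines of the other mature B-cell lymphomas in the series. Those of germinal centre origin came from Burkitt lymphoma (BL) or from the germinal centre subtype of diffuse large B-cell lymphoma (GCB DLBCL). Those on the other side came from mantle cell lymphoma (MCL) or from the activated B-cell subtype (ABC DLBCL). Lines were chosen by the measured level of the gene ZNF593, which had to lie above that of 0 reads, and this kept 25 of 34 lines, 9 of germinal centre origin and 16 of the other side. The 9 lines were HT, Pfeiffer, SU-DHL-10, SU-DHL-4, SU-DHL-5 and Toledo of GCB DLBCL and Raji, Ramos and Daudi of BL. The other side held the 11 MCL lines GRANTA519, HBL-2, Jeko-1, JVM2, MAVER-1, Mino, REC-1, SP-49, SP-53, UPN1 and Z-138 and the 5 ABC DLBCL lines HBL-1, MD903, OCI-Ly10, OCI-Ly3 and SU-DHL-8. ZNF593 separated 2 kinds of library: it ranged from 8.71 to 11.88 in the 25 lines and sat at 4.55, the value of 0 reads, in the 9 lines left out, which were 8 GCB DLBCL lines and the ABC DLBCL line NU-DUL-1. Genes were then selected on the measured differences, where these had the same direction in all 4 pairs of pathologies across the divide, namely GCB DLBCL minus MCL, GCB DLBCL minus ABC DLBCL, BL minus MCL and BL minus ABC DLBCL. That was so for 7057 of 18432 genes tested (38.3%), and this direction is a description, since it chose the genes. The p-values below are adjusted over all genes tested and not over the selected ones.

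The study sequenced total RNA of established human lymphoma cell lines, with the chemokine receptor CXCR4 in MCL as its subject. The labels name a cell line and a pathology for each library and no treatment. Each line was sequenced as 1 library, so the lines are the replicates of a pathology and p-values measure the spread between lines. A cultured line is a clone of 1 tumour that has grown outside its tissue, without the T cells and stroma that surround the tumour cells.

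Germinal centres form in lymphoid follicles when B cells meet their antigen and receive help from T cells. Their B cells divide and mutate their immunoglobulin genes in a dark zone, are selected in a light zone, and are kept inside the follicle by receptors that signal through the G protein subunit Galpha13. The repressor BCL6 holds this programme, and IRF4 and PRDM1 end it when a cell turns towards the plasma cell. GCB DLBCL and BL keep much of the programme, ABC DLBCL resembles B cells that have begun to leave it, and most MCL is taken to arise from B cells of the mantle zone around the germinal centre.

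The deposited values were variance-stabilised read counts on a log2 scale, and every level and difference below is in these log2 units unless reads are named. Recovered depth ranged from 22.6 to 108 Mreads (1 Mread is 1000000 reads) in the lines of germinal centre origin (median 84.0) and from 60.1 to 165 Mreads in the MCL and ABC DLBCL lines (median 87.7). Daudi was the shallowest of the 25. The transform compresses values near 4.55, so a difference towards that level understates the ratio of reads. The B-cell markers MS4A1, CD79A, CD79B, PAX5 and CD22 summed to 2429 to 3448 reads per Mread in lines of germinal centre origin and to 1108 to 5869 in MCL and ABC DLBCL lines, and 0 of the 5 passed the test. T and natural killer cell markers summed to 2.83 to 708 reads per Mread in lines of germinal centre origin, highest in Pfeiffer, and to 0.777 to 154 in the others, highest in JVM2. Myeloid markers summed to 0.240 to 4.47 reads per Mread in lines of germinal centre origin and to 0.283 to 18.2 in the others, and stromal and epithelial markers to 0.539 to 219 in lines of germinal centre origin and to 0.592 to 173 in the others. At an unadjusted p under 0.05, 1 of 5 B-cell markers tested was higher. At that p 1 of 8 T and natural killer cell, 0 of 4 myeloid and 2 of 8 stromal and epithelial markers tested were lower. Of 9 histone genes and of 13 mitochondrially encoded genes, 3 each were lower and 0 higher. The shares of all genes at that p were 6.6% higher and 10.5% lower. Neither limma nor voom on the recovered reads called any of these markers, histone genes or mitochondrially encoded genes after adjustment. The part of these genes in the results was not tested. CCND1, the cyclin D1 gene that MCL overexpresses through a translocation, was at 12.59 or above in every MCL line and at 9.81 or below in every other line of the comparison.

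A few lines stood apart from the others of their label. For each line, genes were taken that were called without it and had the same direction in all 4 pairs. These were used to ask whether the line lay nearer to the mean of the germinal centre side. Toledo lay nearer to that mean for 23.8% of these genes, against 43.1% of all genes tested, and Pfeiffer for 38.4%, against 45.7%. The other 4 GCB DLBCL lines gave 69.15 to 81.9%, against 56.4 to 61.6% of all genes. BL lines gave 69.1% in Raji (56.4% of all genes), 65.9% in Ramos (55.3%) and 84.3% in Daudi (53.4%). MCL lines gave 8.88% in SP-49 to 41.4% in JVM2, against 37.0% and 52.25% of all genes. Among ABC DLBCL lines, SU-DHL-8 stood nearest to the germinal centre side with 54.0%, near its 52.8% of all genes. The other 4 gave 14.3% in OCI-Ly10 to 40.3% in MD903, against 38.5% and 49.0% of all genes. Toledo and Pfeiffer therefore sat on the MCL and ABC DLBCL side of the genes that separated the rest, and SU-DHL-8 sat between the sides. Every line was kept under its label. SP-49 and SP-53 were the most alike pair of lines (Pearson r 0.973 across genes, where genes are not independent replicates, against 0.943 for the next pair).

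**Figure D1:**
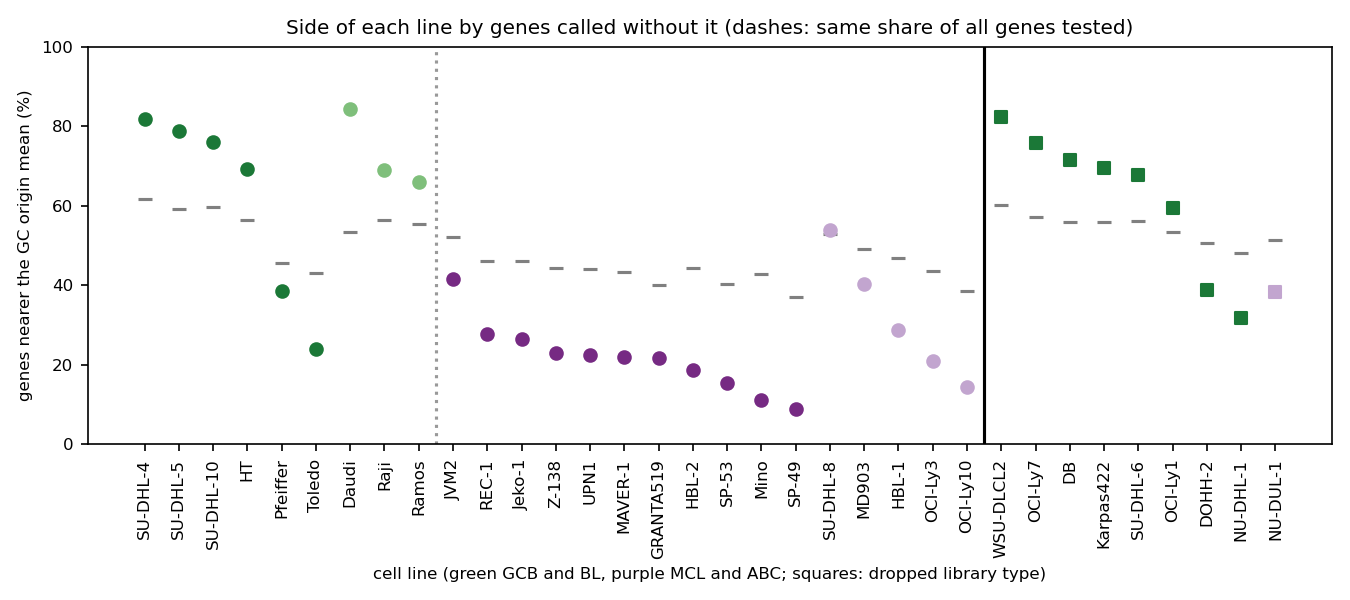
Share of genes, in percent, for which each line lay nearer to the mean of the germinal centre lines than to that of the MCL and ABC DLBCL lines. The genes were those called with that line left out, and dashes give the same share over all genes tested. Toledo (23.8%) and Pfeiffer (38.4%) lie below the other 7 lines of germinal centre origin, and SU-DHL-8 (54.0%) lies above the other MCL and ABC DLBCL lines.

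Over all 18432 genes tested, limma called 530 genes (2.88%) at a Benjamini-Hochberg adjusted p under 0.05, of which 222 were higher (1.2%) and 308 lower (1.67%) in lines of germinal centre origin. Of the 530, 513 (2.78%) had the same direction in all 4 pairs, 215 of them higher (1.17%) and 298 lower (1.62%). At an unadjusted p under 0.05, 6.6% of all genes were higher and 10.5% lower. The split between directions depended on the scaling. With each line centred on its median the call count was 718, of which 463 were higher and 255 lower, and the median difference of all genes moved to 0.139, against -0.051 as deposited. Quantile normalization gave 633 calls, 360 higher and 273 lower, and voom gave 251, 174 higher and 77 lower. Among the 25 lines left out in turn, the count moved by over 1.5 times without Daudi, to 213, and without OCI-Ly10, to 349. Without Toledo it was 755, without SU-DHL-8 it was 743 and without Pfeiffer it was 690. The pairs contributed unequally: GCB DLBCL against MCL gave 628 calls (3.41%), GCB DLBCL against ABC DLBCL 58 (0.315%), BL against MCL 401 (2.18%) and BL against ABC DLBCL 121 (0.656%). These pairs share lines and differ in their number of lines, so their counts do not rank the pathologies.

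**Figure D2:**
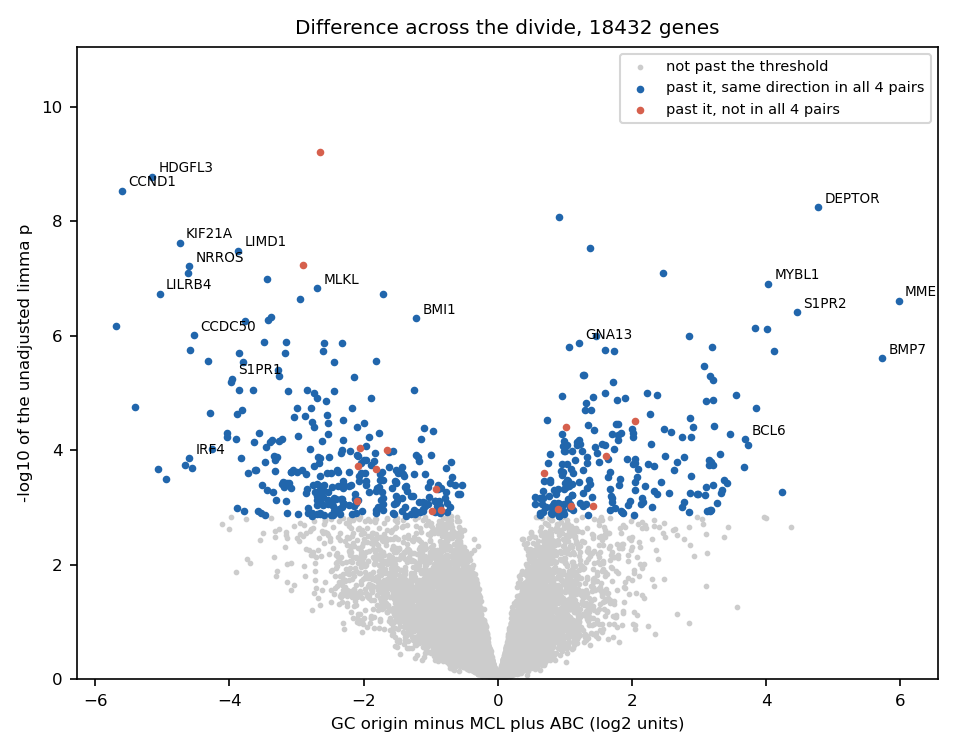
Difference of each of 18432 genes between lines of germinal centre origin and MCL plus ABC DLBCL lines (x axis, log2 units, positive where higher in lines of germinal centre origin) against the unadjusted p from limma on a −log10 scale (y axis). Genes passing the adjusted threshold are coloured, 222 to the right and 308 to the left, blue where all 4 pairs share the direction and red where they do not, and HDGFL3, DEPTOR and CCND1 are among the genes with the smallest p-values.

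The plot of differences against p-values shows genes on both sides with differences of over 4 log2 units, and most genes near 0. The strictest set was the 12 genes (0.0651% of those tested) that passed the adjusted threshold separately in each of the 4 pairs. They were MME, S1PR2, DEPTOR and MYBL1 and 3 identifiers with no symbol, all higher in lines of germinal centre origin, and HDGFL3, KIF21A, LIMD1, NRROS and MLKL, all lower. This count rested on single lines: it was 0 without SU-DHL-4, 1 without OCI-Ly10, SU-DHL-10 or SU-DHL-5, 2 without OCI-Ly3, 3 without Daudi and 7 without Ramos, whereas it was 31 without Toledo, 29 without SU-DHL-8 and 19 without MD903. The calls of its 9 named genes over the 4 pairs together did not: each passed with every line left out in turn.

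MME (chr3:155024202-155183729, GRCh38.p14) encodes CD10, a surface endopeptidase used to recognise germinal centre B cells. MME lay between 9.98 in Pfeiffer and 13.26 in SU-DHL-4, with a median of 12.73 in GCB DLBCL lines, and was 12.62 in Raji, 14.002 in Daudi and 14.27 in Ramos among BL lines. MME in MCL lines lay between 4.81 in Z-138 and 10.49 in UPN1, with a median of 5.84, and in ABC DLBCL lines it was 4.82 in HBL-1, 5.52 in OCI-Ly3, 5.56 in OCI-Ly10, 8.92 in MD903 and 11.44 in SU-DHL-8. All lines of germinal centre origin except Pfeiffer were above all MCL and ABC DLBCL lines, and Pfeiffer was below UPN1 and SU-DHL-8. The difference was 5.98 ± 0.84 (SE), adjusted p = 0.000237, and the 4 pairs ranged from 5.15 to 6.81. In bulk RNA, fewer cells that express a gene and less of its RNA per cell cannot be told apart, here and for every gene below.

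S1PR2 and GNA13 belong to the machinery that confines B cells to the germinal centre: S1PR2 (chr19:10221433-10231331) is a receptor of sphingosine-1-phosphate, and GNA13 (chr17:65009289-65056740) encodes the Galpha13 subunit through which it signals. S1PR2 lay between 6.95 in Toledo and 13.04 in SU-DHL-4, with a median of 12.39 in GCB DLBCL lines, and was 11.46 in Ramos, 11.71 in Daudi and 12.20 in Raji among BL lines. S1PR2 in MCL lines lay between 5.76 in HBL-2 and 10.27 in GRANTA519, with a median of 7.68, and in ABC DLBCL lines it was 5.12 in SU-DHL-8, 5.50 in MD903, 6.84 in OCI-Ly10, 7.58 in OCI-Ly3 and 8.23 in HBL-1. Only Toledo overlapped the other side, where 10.27 in GRANTA519 was the highest value. The difference was 4.46 ± 0.65 (SE), adjusted p = 0.000362. GNA13 lay between 12.83 in Toledo and 14.09 in HT, with a median of 13.23 in GCB DLBCL lines, and was 12.48 in Raji, 12.82 in Ramos and 13.30 in Daudi among BL lines. GNA13 in MCL lines lay between 11.07 in GRANTA519 and 12.39 in HBL-2, with a median of 11.86, and in ABC DLBCL lines it was 11.54 in OCI-Ly3, 11.94 in SU-DHL-8, 11.99 in OCI-Ly10, 12.04 in MD903 and 12.10 in HBL-1. Every line of germinal centre origin, Toledo and Pfeiffer included, was above every MCL and ABC DLBCL line. GNA13 was the 1 gene of 18432 (0.00543%) with all lines of germinal centre origin above all others. Its difference was small, 1.21 ± 0.19 (SE), adjusted p = 0.000706. With all 34 lines and the library kind as a covariate the call was lost (adjusted p = 0.0616).

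DEPTOR encodes an inhibitor of the mTOR kinase. DEPTOR lay between 6.55 in Toledo and 12.58 in Pfeiffer, with a median of 10.79 in GCB DLBCL lines, and was 10.27 in Raji, 12.08 in Daudi and 12.21 in Ramos among BL lines. DEPTOR in MCL lines lay between 5.57 in HBL-2 and 8.55 in Z-138, with a median of 6.33, and in ABC DLBCL lines it was 5.24 in HBL-1, 5.46 in OCI-Ly3, 5.50 in MD903, 5.88 in OCI-Ly10 and 5.94 in SU-DHL-8. Toledo again was the 1 line of germinal centre origin within the range of the others, and the difference was 4.78 ± 0.54 (SE), adjusted p = 2.7e-05. MYBL1 encodes A-MYB, a transcription factor of dividing germinal centre B cells. MYBL1 lay between 8.27 in Toledo and 12.48 in SU-DHL-5, with a median of 10.78 in GCB DLBCL lines, and was 11.68 in Raji, 12.07 in Ramos and 12.68 in Daudi among BL lines. MYBL1 in MCL lines lay between 6.55 in Jeko-1 and 10.24 in GRANTA519, with a median of 7.58, and in ABC DLBCL lines it was 5.75 in OCI-Ly10, 5.77 in OCI-Ly3, 6.06 in HBL-1, 7.02 in MD903 and 8.52 in SU-DHL-8. Toledo and Pfeiffer were the lowest GCB DLBCL lines and overlapped the MCL and ABC DLBCL lines, and the BL lines stood above all of these. The difference was 4.03 ± 0.55 (SE), adjusted p = 0.000163.

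HDGFL3 (chr15:83112738-83207823), which encodes a protein related to hepatoma-derived growth factor, had the smallest adjusted p of the genes lower in all 4 pairs. HDGFL3 lay between 4.55 in HT and 9.92 in Pfeiffer, with a median of 4.55 in GCB DLBCL lines, and was 4.55 in Daudi, 4.55 in Raji and 4.90 in Ramos among BL lines. HDGFL3 in MCL lines lay between 9.10 in HBL-2 and 12.85 in JVM2, with a median of 10.96, and in ABC DLBCL lines it was 9.34 in MD903, 9.40 in OCI-Ly3, 9.44 in HBL-1, 9.49 in SU-DHL-8 and 10.01 in OCI-Ly10. Of the 9 lines of germinal centre origin, 8 were at or near 0 reads, and Pfeiffer alone was as high as MCL and ABC DLBCL lines. The difference was -5.15 ± 0.55 (SE), adjusted p = 1.5e-05. NRROS (chr3:196639694-196662004) encodes a protein of the endoplasmic reticulum that limits reactive oxygen species and anchors latent TGF-beta. NRROS lay between 5.09 in SU-DHL-5 and 10.66 in Toledo, with a median of 6.73 in GCB DLBCL lines, and was 4.55 in Daudi, 6.21 in Ramos and 9.36 in Raji among BL lines. NRROS in MCL lines lay between 10.67 in Jeko-1 and 12.21 in SP-49, with a median of 11.60, and in ABC DLBCL lines it was 10.05 in SU-DHL-8, 11.61 in HBL-1, 11.74 in MD903, 11.96 in OCI-Ly3 and 12.79 in OCI-Ly10. Only Toledo reached the range of the other side, above SU-DHL-8, and the difference was -4.60 ± 0.60 (SE), adjusted p = 0.000112.

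KIF21A encodes a kinesin motor of microtubules. KIF21A lay between 4.55 in SU-DHL-10 and 10.85 in Toledo, with a median of 5.15 in GCB DLBCL lines, and was 4.55 in Daudi, 4.55 in Raji and 4.90 in Ramos among BL lines. KIF21A in MCL lines lay between 8.31 in Jeko-1 and 10.71 in HBL-2, with a median of 10.26, and in ABC DLBCL lines it was 10.02 in MD903, 10.24 in SU-DHL-8, 10.37 in HBL-1, 10.94 in OCI-Ly3 and 11.16 in OCI-Ly10. Toledo and Pfeiffer overlapped the other side and the other 7 lines of germinal centre origin were near 0 reads. The difference was -4.74 ± 0.58 (SE), adjusted p = 7.3e-05. LIMD1, an adaptor with LIM domains that is part of published ABC DLBCL signatures, lay between 6.03 in SU-DHL-10 and 11.15 in Toledo, with a median of 8.25 in GCB DLBCL lines, and was 5.56 in Raji, 7.08 in Ramos and 7.34 in Daudi among BL lines. LIMD1 in MCL lines lay between 9.77 in JVM2 and 12.06 in HBL-2, with a median of 11.13, and in ABC DLBCL lines it was 10.93 in MD903, 11.02 in SU-DHL-8, 11.74 in OCI-Ly10, 11.96 in HBL-1 and 12.18 in OCI-Ly3. Toledo was again the 1 line within the range of the other side, and the difference was -3.87 ± 0.48 (SE), adjusted p = 7.6e-05.

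MLKL (chr16:74671855-74700862) encodes the protein that breaches the membrane in necroptosis. MLKL lay between 4.79 in SU-DHL-4 and 6.68 in Pfeiffer, with a median of 5.74 in GCB DLBCL lines, and was 4.55 in Daudi, 5.05 in Raji and 7.12 in Ramos among BL lines. MLKL in MCL lines lay between 7.17 in Mino and 9.44 in HBL-2, with a median of 7.99, and in ABC DLBCL lines it was 7.63 in SU-DHL-8, 8.29 in HBL-1, 8.32 in MD903, 8.997 in OCI-Ly3 and 9.29 in OCI-Ly10. The groups did not overlap, although Ramos at 7.12 was close below Mino at 7.17. The difference was -2.69 ± 0.37 (SE), adjusted p = 0.00018. All lines of germinal centre origin were below all others for 3 of 18432 genes (0.0163%), MLKL, LILRB4 and BMI1. BMI1, a subunit of Polycomb repressive complex 1, was 8.48 ± 0.31 in GCB DLBCL and 8.61 ± 0.22 in BL lines, against 9.87 ± 0.32 in MCL and 9.64 ± 0.51 in ABC DLBCL lines (mean ± SD), a difference of -1.22 ± 0.18 (SE), adjusted p = 0.000414. Over all 34 lines the BMI1 call was lost (adjusted p = 0.211, and 0.0713 with the library kind as a covariate).

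LILRB4 encodes an inhibitory receptor of the leukocyte immunoglobulin-like family, best known from myeloid cells. LILRB4 lay between 4.74 in HT and 5.19 in Toledo, with a median of 5.07 in GCB DLBCL lines, and was 4.89 in Daudi, 5.01 in Raji and 5.40 in Ramos among BL lines. LILRB4 in MCL lines lay between 7.45 in REC-1 and 13.47 in SP-49, with a median of 11.65, and in ABC DLBCL lines it was 6.25 in MD903, 6.30 in SU-DHL-8, 9.67 in OCI-Ly3, 10.81 in HBL-1 and 11.60 in OCI-Ly10. All lines of germinal centre origin, Toledo and Pfeiffer included, were within 1 log2 unit of the level of 0 reads, and the MCL lines other than REC-1 and JVM2 were at 10.34 or above. The difference was -5.04 ± 0.70 (SE), adjusted p = 0.000205. On the recovered reads with voom the call was lost, with an adjusted p of 0.0508. The 4 myeloid markers tested did not pass. The 8 measured, tested or not, summed to 0.240 to 4.47 reads per Mread in lines of germinal centre origin and to 0.283 to 18.2 in the others.

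**Figure D3:**
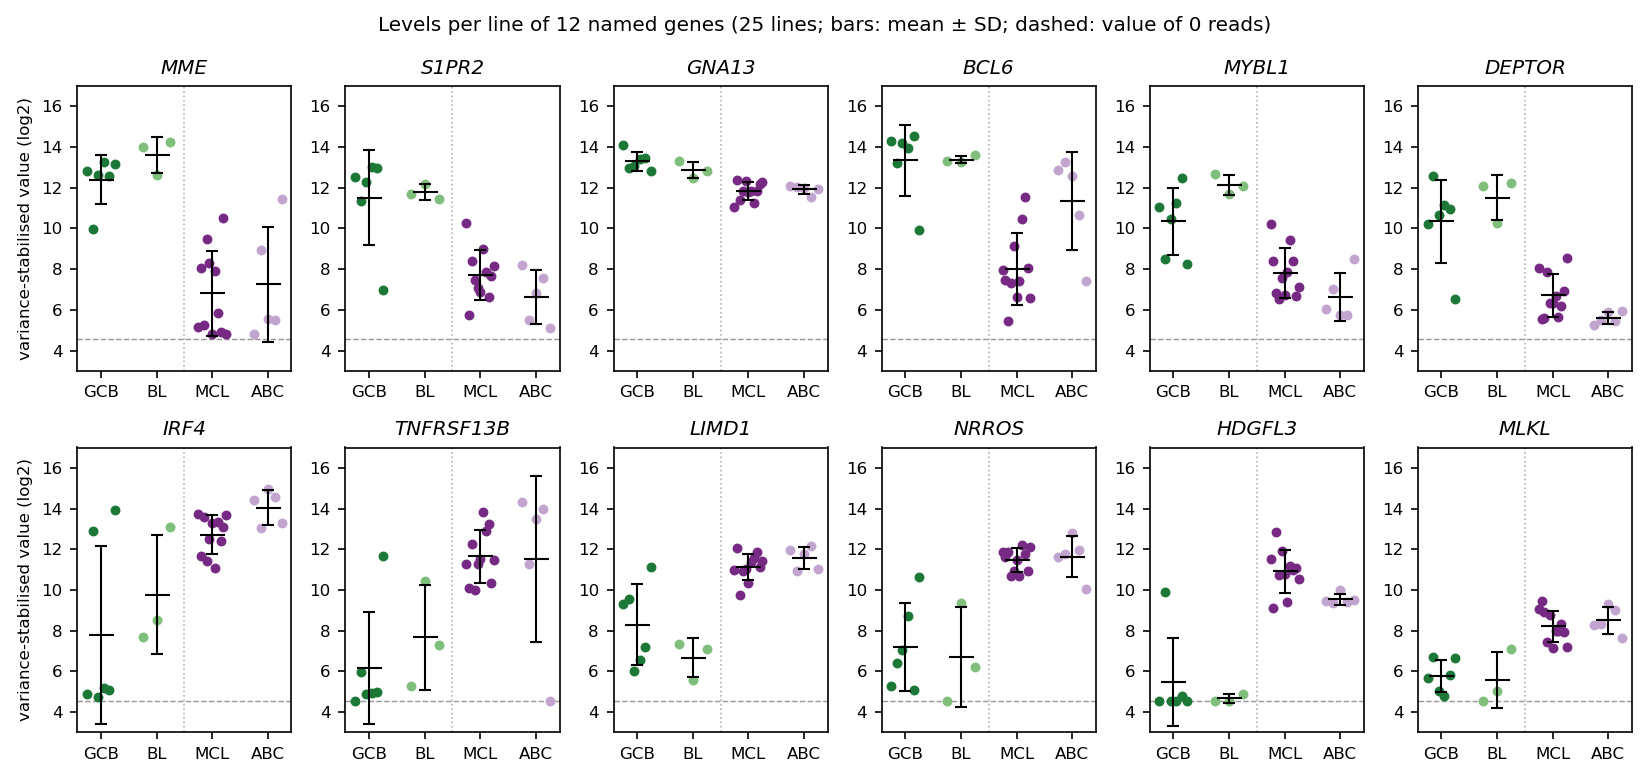
Levels of 12 genes in each of the 25 lines, in log2 units (y axis), by pathology (x axis, GCB DLBCL and BL left, MCL and ABC DLBCL right). Dots are lines, bars the mean ± SD over lines, and the dashed line the level of 0 reads. GNA13 and MLKL show no overlap between the sides, and in most other panels 1 or 2 lines of germinal centre origin, usually Toledo or Pfeiffer, lie among the others.

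The plot of levels by pathology shows 2 forms of difference. GNA13 was expressed in every line, at levels that differed between the sides. HDGFL3 was near 0 reads in all lines of germinal centre origin except Pfeiffer and was expressed in all MCL and ABC DLBCL lines.

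Of 22 genes listed for the germinal centre programme, 10 were called higher and 0 lower in lines of germinal centre origin, with a median difference of 1.98, against -0.051 over all genes tested, of which 1.2% were called higher. The list holds published markers of the type that the labels name, so its direction is no independent evidence. The 10 were MME, S1PR2, MYBL1, BCL6, LMO2, ELL3, MAML3, ASB13, ITPKB and NEIL1, and 17 of the 22 were higher at an unadjusted p under 0.05, with 0 lower, against 6.6% and 10.5% of all genes. The number called was 7 without Daudi and 13 without Toledo, 8 with voom and 4 in the lines that the labels mark as re-analysed from earlier data, which leaves out Daudi, HBL-2, MAVER-1 and UPN1.

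BCL6 lay between 9.93 in Toledo and 14.55 in SU-DHL-5, with a median of 14.06 in GCB DLBCL lines, and was 13.27 in Raji, 13.29 in Daudi and 13.60 in Ramos among BL lines. BCL6 in MCL lines lay between 5.45 in JVM2 and 11.55 in SP-53, with a median of 7.49, and in ABC DLBCL lines it was 7.43 in SU-DHL-8, 10.68 in OCI-Ly3, 12.57 in OCI-Ly10, 12.88 in HBL-1 and 13.25 in MD903. The MCL lines were lowest, but 3 of 5 ABC DLBCL lines, OCI-Ly10, HBL-1 and MD903, were within 2 log2 units of the GCB DLBCL median, and Toledo was below SP-49 and SP-53. The difference was 3.68 ± 0.76 (SE), adjusted p = 0.00884, with pairs of 5.35 and 5.38 against MCL, and of 1.99 and 2.02 against ABC DLBCL. In the re-analysed lines alone it missed the threshold (adjusted p = 0.0618). The long noncoding RNA LINC01991 begins 230.9 kb from the start of BCL6 on chromosome 3, with both genes on the minus strand (chr3:187958775-187976407 and chr3:187721377-187745468, GRCh38.p14, RefSeq). LINC01991 was 8.52 ± 2.34 in GCB DLBCL and 9.90 ± 1.08 in BL lines, against 4.69 ± 0.17 in MCL and 5.70 ± 1.80 in ABC DLBCL lines (mean ± SD), a difference of 4.02 ± 0.61 (SE), adjusted p = 0.000515. Every MCL line was within 1 log2 unit of 0 reads, and HBL-1 with 8.86 was the 1 ABC DLBCL line above 6, without which the adjusted p was 9.1e-05.

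The promoter of BCL6 is shown because the BCL6 protein is known to bind and repress its own gene. The RefSeq table holds windows of 2 starts of BCL6, and that at chr3:187736502-187736751 held none of the 5 motifs searched. The window shown holds the 250 bases before the other start, at chr3:187745469-187745718 on the minus strand, from RefSeq on GRCh38.p14. Capitals mark TTCNNNGAA, a palindrome bound by BCL6 and by STAT factors, found 28 to 20 bases before the start.
BCL6 promoter: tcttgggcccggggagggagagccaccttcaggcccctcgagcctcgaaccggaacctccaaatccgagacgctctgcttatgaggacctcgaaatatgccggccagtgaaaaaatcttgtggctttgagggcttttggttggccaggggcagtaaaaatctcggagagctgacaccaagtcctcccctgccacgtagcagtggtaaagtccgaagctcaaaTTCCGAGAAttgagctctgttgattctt
This motif was present, searched on both strands, in 5.63% of 231 promoter windows of genes called higher, 4.47% of 403 windows of genes called lower and 5.46% of 17708 windows of all genes tested. A match of letters is not a bound site, and the share in genes called in either direction was near that of all genes.

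Among the other members of the list, ELL3, an elongation factor of RNA polymerase II, differed by 1.79 ± 0.35 (SE), adjusted p = 0.00622, and MAML3, a coactivator of Notch signalling, by 2.01 ± 0.41 (SE), adjusted p = 0.00841. Both passed with every line left out in turn. Their calls were lost over all 34 lines (adjusted p = 0.112 for ELL3 and 0.185 for MAML3). LMO2, a transcriptional cofactor used to recognise GCB DLBCL, differed by 2.87 ± 0.72 (SE), adjusted p = 0.0289. LMO2 reached 12.75 in SU-DHL-10 but was at 5.33 in HT and 5.79 in Toledo, within the range of the ABC DLBCL lines, and its call was lost without SU-DHL-5 (adjusted p = 0.0522), Raji (0.0855) or Ramos (0.104). ASB13, an adaptor of ubiquitin ligases, differed by 3.37 ± 0.80 (SE), adjusted p = 0.0219, although HT held only 4.93, and the call was lost without Raji (0.0592), Ramos (0.051) or Daudi (0.0585). The ASB13 call was also lost with voom and in the re-analysed lines. ITPKB, a kinase that restrains PI3K signalling, differed by 1.95 ± 0.51 (SE), adjusted p = 0.0382, with a BL minus MCL difference of only 0.59. ITPKB kept its call in 15 of 25 fits that each left out a line and in 8 of 12 other settings, with an adjusted p of 0.143 without Daudi. NEIL1, a DNA glycosylase of base excision repair, differed by 3.16 ± 0.85 (SE), adjusted p = 0.0436, and kept its call in 9 of 25 fits that each left out a line and in 8 of 12 other settings, with an adjusted p of 0.146 without Daudi.

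Several well-known markers in the list did not pass. RGS13, which shortens signalling of chemokine receptors, differed by 3.43 ± 0.999 (SE), adjusted p = 0.0624, and 4 of 5 ABC DLBCL lines were at 9.14 or above. RGS13 was at 4.55 in Pfeiffer and 6.02 in Toledo, and passed without Toledo (adjusted p = 0.0221) or Pfeiffer (0.0115). Leaving out a line that lies towards the other side favours a pass, here and for every gene below without a call. Such passes were picked with the values known and do not count as calls. GCSAM, an adaptor of germinal centre B cells, differed by 3.10 ± 0.94 (SE), adjusted p = 0.0714, and SERPINA9, a serpin named centerin for its site of expression, by 3.10 ± 1.28 (SE), adjusted p = 0.208. MEF2B, a transcription factor that activates BCL6, differed by 1.33 ± 0.39 (SE), adjusted p = 0.0641, with 4.94 in Toledo, without which it passed (adjusted p = 0.00286).

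Genes that place B cells within lymphoid tissue moved in both directions. Of 17 confinement and homing genes tested, of 18 listed, 3 were called higher and 1 lower, with a median of 0.19. Over all genes tested 1.2% were called higher and 1.67% lower. At an unadjusted p under 0.05, 6 of the 17 were higher and 4 lower, against 6.6% and 10.5% of all genes. S1PR2, GNA13 and PTK2 were the 3 called higher, and S1PR1 was the 1 called lower. S1PR1 is the receptor that draws lymphocytes out of tissue towards sphingosine-1-phosphate in blood and lymph. S1PR1 lay between 4.74 in SU-DHL-10 and 9.92 in Toledo, with a median of 5.02 in GCB DLBCL lines, and was 4.89 in Daudi, 4.96 in Raji and 5.10 in Ramos among BL lines. S1PR1 in MCL lines lay between 8.11 in GRANTA519 and 13.21 in SP-49, with a median of 9.62, and in ABC DLBCL lines it was 6.78 in SU-DHL-8, 7.81 in OCI-Ly10, 8.40 in MD903, 9.97 in HBL-1 and 10.23 in OCI-Ly3. Toledo was the 1 line of germinal centre origin within the range of the others, and the difference was -3.96 ± 0.68 (SE), adjusted p = 0.00183. It passed with every line left out and under every other setting tried. KLF2, a transcription factor that activates S1PR1, also lay lower, by -3.22 ± 0.78 (SE), adjusted p = 0.0241. Its call was lost without OCI-Ly10 (adjusted p = 0.0507), Raji (0.0803) or Daudi (0.0919) and with voom (0.125).

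PTK2, the focal adhesion kinase, differed by 3.66 ± 0.84 (SE), adjusted p = 0.0165, with 5.13 in Toledo and 10.56 in the ABC DLBCL line OCI-Ly10, and its call was lost without Daudi (adjusted p = 0.0654) and with voom (0.096). P2RY8, another confining receptor that couples to Galpha13, differed by 1.43 ± 0.51 (SE), adjusted p = 0.131, and passed without Toledo (0.0279), where it was at 9.64. CCR7, the receptor that guides cells to T-cell zones, was 7.999 ± 3.29 in GCB DLBCL and 7.39 ± 3.48 in BL lines, against 11.78 ± 2.42 in MCL and 11.81 ± 2.82 in ABC DLBCL lines (mean ± SD). Its difference was -4.10 ± 1.18 (SE), adjusted p = 0.0591, with 13.30 in Toledo, and it passed without that line (0.0161). GPR183, an oxysterol receptor that guides B cells to the outer follicle, differed by -3.14 ± 0.97 (SE), adjusted p = 0.078, with 12.88 in Pfeiffer, and passed without that line (0.00843). CD44, an adhesion receptor for hyaluronan, differed by -3.91 ± 1.46 (SE), adjusted p = 0.161, with 14.70 in Pfeiffer and 13.13 in Toledo and at most 8.88 in the other lines of germinal centre origin. CD44 had an adjusted p of 0.059 without Pfeiffer and 0.0825 without Toledo, and passed without MD903 (0.0491). CXCR4 showed no common direction: the pairs were -1.22, 0.39, 0.97 and 2.58 in the order given at the start, and the difference was 0.68 ± 0.81 (SE), adjusted p = 0.743.

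Of 17 genes listed for the ABC type, 6 were called lower and 0 higher in lines of germinal centre origin, with a median of -2.37, against 1.67% of all genes called lower. Of the 17, 13 were lower at an unadjusted p under 0.05, against 10.5% of all genes. The sign was negative in all 4 pairs for 14 and positive in all 4 pairs for 1, which is a description. The 6 were IRF4, TNFRSF13B, LIMD1, CCDC50, ENTPD1 and PTPN1. This list too was published for the type that the labels name. The number called was 3 without Daudi, 11 without SU-DHL-8, 4 with voom and 3 in the re-analysed lines.

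IRF4 encodes the transcription factor that drives plasma cell differentiation. IRF4 lay between 4.74 in SU-DHL-10 and 13.93 in Toledo, with a median of 5.15 in GCB DLBCL lines, and was 7.69 in Daudi, 8.54 in Raji and 13.10 in Ramos among BL lines. IRF4 in MCL lines lay between 11.10 in REC-1 and 13.73 in GRANTA519, with a median of 13.11, and in ABC DLBCL lines it was 13.02 in MD903, 13.28 in SU-DHL-8, 14.40 in HBL-1, 14.59 in OCI-Ly3 and 14.95 in OCI-Ly10. Toledo, Pfeiffer and Ramos were as high as MCL lines, 4 GCB DLBCL lines were near 0 reads, and MCL and ABC DLBCL lines were uniformly high. The difference was -4.60 ± 1.02 (SE), adjusted p = 0.0135, and without Daudi the adjusted p was 0.0717. In the lines marked as re-analysed it was 0.117.

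TNFRSF13B encodes TACI, a receptor of the survival factors BAFF and APRIL. TNFRSF13B lay between 4.55 in HT and 11.66 in Toledo, with a median of 4.97 in GCB DLBCL lines, and was 5.30 in Daudi, 7.32 in Ramos and 10.43 in Raji among BL lines. TNFRSF13B in MCL lines lay between 9.98 in Jeko-1 and 13.85 in REC-1, with a median of 11.46, and in ABC DLBCL lines it was 4.55 in SU-DHL-8, 11.30 in MD903, 13.47 in OCI-Ly10, 13.96 in OCI-Ly3 and 14.31 in HBL-1. Toledo and Raji were as high as MCL lines, and SU-DHL-8 had 0 reads. The difference was -4.66 ± 1.05 (SE), adjusted p = 0.0153, and the call was lost without Daudi (adjusted p = 0.079) and with voom (0.302). CCDC50, a ubiquitin-binding protein, differed by -4.53 ± 0.69 (SE), adjusted p = 0.000635. It was 7.97 ± 2.79 in GCB DLBCL and 9.53 ± 0.71 in BL lines, against 13.51 ± 1.21 in MCL and 13.05 ± 0.91 in ABC DLBCL lines (mean ± SD), and passed in every setting. ENTPD1, the ectonucleotidase CD39, differed by -4.25 ± 0.91 (SE), adjusted p = 0.0111, with 4.55 in SU-DHL-8, and voom did not call it (0.252). PTPN1, a phosphatase of JAK and STAT signalling, differed by -1.90 ± 0.43 (SE), adjusted p = 0.0156, with a GCB DLBCL minus MCL difference of only -0.60. Without Daudi its adjusted p was 0.0512.

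BATF, an AP-1 factor that acts with IRF4, differed by -3.17 ± 1.02 (SE), adjusted p = 0.0961, with 12.98 in Pfeiffer, and passed without that line (adjusted p = 0.0173). CCND2, the D-type cyclin of many B cells, differed by -3.73 ± 1.29 (SE), adjusted p = 0.12. CCND2 was at 13.67 to 15.75 in OCI-Ly10, OCI-Ly3 and HBL-1 and below 5 in SU-DHL-8 and MD903, so the ABC DLBCL lines split among themselves, and it passed without SU-DHL-8 (0.0362) or MD903 (0.0432).

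Of 11 plasmablast genes, 1 was called higher and 1 lower, with a median of 0.10, against 1.2% and 1.67% of all genes tested. At an unadjusted p under 0.05, 2 were higher and 3 lower, against 6.6% and 10.5% of all genes. The 1 called higher was JCHAIN, the joining chain of polymeric immunoglobulins, with 4.24 ± 1.06 (SE), adjusted p = 0.0283, where the GCB DLBCL minus MCL difference was 1.15 and the BL minus ABC DLBCL difference 7.34. JCHAIN kept its call in 19 of 25 fits that each left out a line and in 8 of 12 other settings, and lost it without OCI-Ly10, OCI-Ly3, SU-DHL-4, Raji, Ramos or Daudi. The 1 called lower was PRDM1, which encodes the repressor Blimp-1, with -2.64 ± 0.73 (SE), adjusted p = 0.0465. PRDM1 kept its call in only 8 of 25 fits that each left out a line and in 5 of 12 other settings, with adjusted p-values of 0.16 without Daudi, 0.118 with voom and 0.116 over all 34 lines. PRDM1 was 6.39 ± 1.999 in GCB DLBCL and 7.04 ± 1.14 in BL lines, against 9.07 ± 1.02 in MCL and 9.64 ± 2.70 in ABC DLBCL lines (mean ± SD). CD27, a receptor of the TNF family found on memory and germinal centre B cells, differed by 4.001 ± 1.12 (SE), adjusted p = 0.0515. CD27 was at 5.46 in Toledo and at 12.06 or above in the other 8 lines of germinal centre origin, and it passed without Toledo (0.00638).

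Of 17 mantle, naive and memory B-cell genes tested, of 19 listed, 4 were called lower and 1 higher, with a median of -1.62, and 7 were lower and 1 higher at an unadjusted p under 0.05. Over all genes 1.67% were called lower, and 10.5% were lower at an unadjusted p. The 4 were S1PR1, KLF2, FCMR and CD5, and the 1 was IL4R. The number called lower was 1 without Daudi or with voom, 2 without Raji or OCI-Ly10 or in the re-analysed lines, and 6 without SU-DHL-8. FCMR, the Fc receptor for immunoglobulin M, differed by -3.11 ± 0.75 (SE), adjusted p = 0.0236, with 10.97 in Toledo, and its call was lost without Raji (adjusted p = 0.0649) or Daudi (0.0688). FCMR kept its call in 9 of 12 other settings, and lost it with voom and over all 34 lines. CD5, a surface protein of T cells that MCL also carries, was at 5.01 or below in every line of germinal centre origin. Among ABC DLBCL lines CD5 was 4.55 in SU-DHL-8, 4.82 in HBL-1, 10.38 in MD903, 10.54 in OCI-Ly3 and 12.09 in OCI-Ly10, and MCL lines lay between 4.55 in Z-138 and 11.40 in Mino, with a median of 7.40. The sides still overlapped, because Z-138 and SU-DHL-8 had 0 reads, and the difference was -3.46 ± 0.96 (SE), adjusted p = 0.0482. CD5 kept its call in only 6 of 25 fits that each left out a line and in 7 of 12 other settings, with adjusted p-values of 0.117 without Daudi, 0.382 with voom and 0.155 in the re-analysed lines. IL4R, the receptor chain for the T-cell cytokine interleukin 4, was 11.51 ± 0.99 in GCB DLBCL and 13.13 ± 0.32 in BL lines, against 10.04 ± 0.85 in MCL and 10.99 ± 0.90 in ABC DLBCL lines (mean ± SD). IL4R differed by 1.80 ± 0.37 (SE), adjusted p = 0.00783, and lost the call over all 34 lines (0.317).

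Signalling lists held 0 or 1 call each, and over all genes tested 1.2% were called higher and 1.67% lower. Of 17 B-cell receptor genes, 1 was higher and 3 lower at an unadjusted p under 0.05, against 6.6% and 10.5% of all genes. The median was -0.16, and it became 0.02 when each line was centred on its median. After adjustment 0 were called higher and 1 lower. The 1 was PTPN6, the phosphatase SHP-1 that dampens receptor signalling, with -2.47 ± 0.65 (SE), adjusted p = 0.0368, where the GCB DLBCL minus ABC DLBCL difference was -0.71. PTPN6 kept its call in 18 of 25 fits that each left out a line and in 7 of 12 other settings, with an adjusted p of 0.156 without Daudi and 0.144 with voom. Of 19 NF-kB target genes tested, of 20 listed, limma and voom each called 0, while 5 were lower and 0 higher at an unadjusted p under 0.05, against 10.5% and 6.6% of all genes, and the median was -0.70. NFKBIE, an inhibitor and target of NF-kB, differed by -1.57 ± 0.47 (SE), adjusted p = 0.0666, and CCL3, a chemokine induced by the receptor, by -3.04 ± 1.24 (SE), adjusted p = 0.203. Of 15 PI3K and mTOR genes, 1, DEPTOR, was called higher and 0 lower, with a median of 0.36. At an unadjusted p under 0.05, 4 of them were higher and 0 lower, against 6.6% and 10.5% of all genes.

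Among 17 regulators of the step from G1 to S phase, CCND3 was called higher and CCND1 lower, with a median of -0.05. Over all genes tested 1.2% were called higher and 1.67% lower. At an unadjusted p under 0.05, 4 of the 17 were higher and 4 lower, against 6.6% and 10.5% of all genes. CCND3 encodes cyclin D3, the D-type cyclin that germinal centre B cells depend on. CCND3 lay between 11.59 in SU-DHL-4 and 13.95 in HT, with a median of 13.05 in GCB DLBCL lines, and was 13.41 in Raji, 13.45 in Daudi and 13.49 in Ramos among BL lines. CCND3 in MCL lines lay between 9.88 in Mino and 11.33 in HBL-2, with a median of 10.75, and in ABC DLBCL lines it was 10.20 in OCI-Ly3, 10.20 in OCI-Ly10, 10.70 in MD903, 11.61 in HBL-1 and 15.99 in SU-DHL-8. SU-DHL-8 held the highest value of all 25 lines, HBL-1 was just above SU-DHL-4, and the other MCL and ABC DLBCL lines were below all lines of germinal centre origin. The difference was 1.98 ± 0.51 (SE), adjusted p = 0.0352. Without SU-DHL-8 the adjusted p was 3.1e-05. CCND3 kept its call in 16 of 25 fits that each left out a line and in 7 of 12 other settings, and lost it with voom (0.0585), over all 34 lines (0.162), in the re-analysed lines (0.137) and without HBL-1, MD903, OCI-Ly10, OCI-Ly3, HT, SU-DHL-5, Raji, Ramos or Daudi. CCND1 is an example of a called gene with the same sign in all pairs whose difference came from a single pathology. Its difference was -5.60 ± 0.61 (SE), adjusted p = 1.8e-05, with -10.59 and -10.48 against MCL, but -0.72 and -0.61 against ABC DLBCL, and voom did not call it (0.0684). SOX11, a transcription factor that marks MCL, had the same form, with -5.38 for GCB DLBCL minus MCL and -0.35 for GCB DLBCL minus ABC DLBCL, and lost its call with voom (0.617) and without HBL-1 (0.0531), Raji (0.0771) or Daudi (0.0916). CDK6, a kinase partner of the D-type cyclins, differed by 2.36 ± 0.77 (SE), adjusted p = 0.102, where ABC DLBCL lines were as high as those of germinal centre origin, and it passed with voom (0.0272). CDKN2A encodes the inhibitors p16 and ARF. CDKN2A was at 9.39 or above in all 9 lines of germinal centre origin and near 0 reads in 6 of 11 MCL and 3 of 5 ABC DLBCL lines, with 4.37 ± 1.27 (SE), adjusted p = 0.0622. It passed with voom (0.0136) and without SU-DHL-8 (0.0132), Jeko-1, JVM2, Mino or UPN1.

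Of 14 genes of the BCL2 family, limma called 0 and voom 1 higher, with a median of 0.09. Over all genes tested limma called 1.2% higher and 1.67% lower. At an unadjusted p under 0.05, 1 of the 14 was higher and 2 were lower, against 6.6% and 10.5% of all genes. BCL2, the inhibitor of apoptosis that BCL6 can repress, was 9.96 ± 3.24 in GCB DLBCL and 7.17 ± 2.16 in BL lines, against 12.04 ± 1.99 in MCL and 11.72 ± 1.93 in ABC DLBCL lines (mean ± SD). Its difference was -3.31 ± 0.98 (SE), adjusted p = 0.0677, with 13.997 in Toledo, and it passed without that line (0.0237). BIK, a proapoptotic member, differed by 2.67 ± 0.81 (SE), adjusted p = 0.0736.

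Each list of the germinal centre zones held 1 call, and over all genes tested 1.2% were called higher and 1.67% lower. Of 10 dark zone genes 1, MYBL1, was called higher and 0 lower, with a median of 0.10, and of 12 light zone genes 1, IRF4, was called lower and 0 higher, with a median of -0.80. At an unadjusted p under 0.05, 1 dark zone gene was higher and 0 lower, and 2 light zone genes were lower and 0 higher. The shares of all genes at that p were 6.6% higher and 10.5% lower. Of 12 MHC class II genes, 1 was higher and 0 lower at an unadjusted p under 0.05, with a median of 0.42. After adjustment 0 were called lower, and the same 1 was called higher. It was HLA-DOB, which tunes peptide loading, with 2.05 ± 0.51 (SE), adjusted p = 0.0271, where the GCB DLBCL minus MCL difference was 0.91. It kept its call in 20 of 25 fits that each left out a line and in 10 of 12 other settings, with an adjusted p of 0.0763 without Daudi. Of 19 interferon response genes, 2 were called lower and 0 higher, with a median of -1.03, and 8 were lower at an unadjusted p under 0.05. Over all genes these shares were 1.67% called lower and 10.5% lower at an unadjusted p. The number called was 1 without Daudi or Raji or with voom, and 0 in the re-analysed lines, where 2 of the 3 BL lines remain. IRF7, a transcription factor of the interferon response, differed by -1.96 ± 0.42 (SE), adjusted p = 0.0103, and without Daudi its adjusted p was 0.0665. MX2, an antiviral GTPase, differed by -3.47 ± 0.78 (SE), adjusted p = 0.0147, and without Raji its adjusted p was 0.0623. MX2 kept its call in 9 of 12 other settings, and lost it with voom and in the re-analysed lines. MX2 split the GCB DLBCL lines, with 10.81 to 12.65 in Pfeiffer, SU-DHL-10 and Toledo and 5.22 to 7.15 in SU-DHL-5, SU-DHL-4 and HT.

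**Figure D4:**
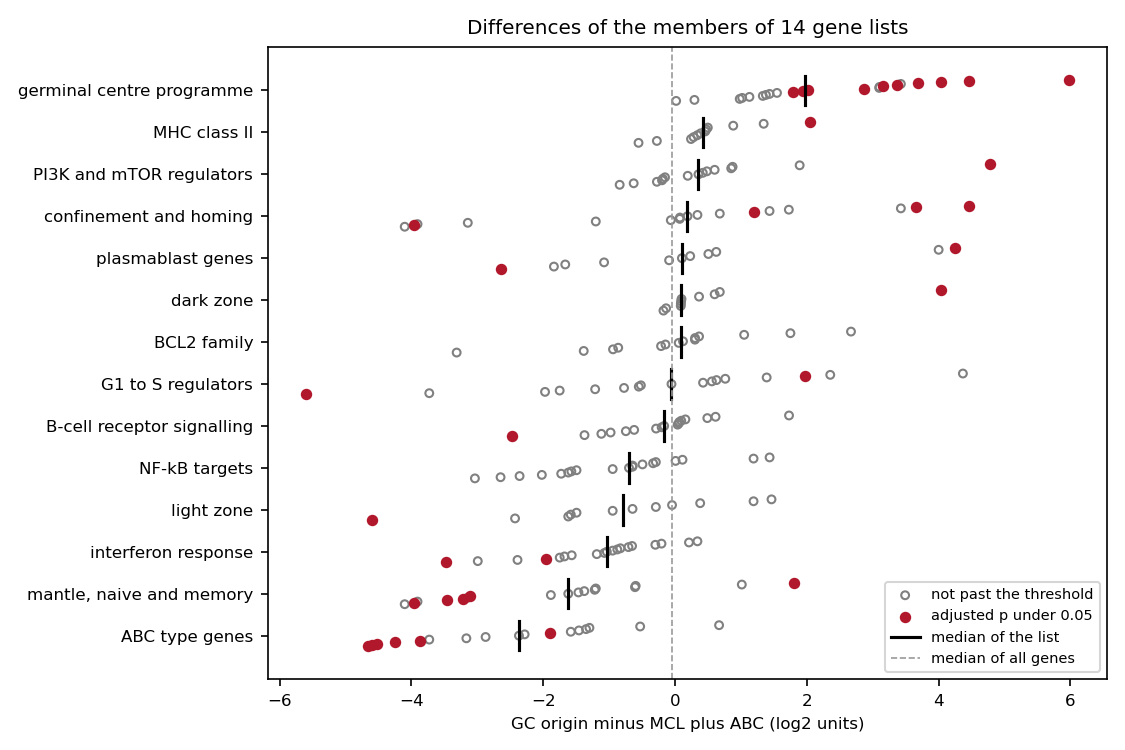
Differences between lines of germinal centre origin and MCL plus ABC DLBCL lines (x axis, log2 units, positive where higher in lines of germinal centre origin) of the tested members of 14 gene lists. Points are genes, red where called by limma, and bars are medians. The median of the germinal centre programme is 1.98 and that of the ABC type genes -2.37, and the other medians lie between -1.62 and 0.42.

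As the plot of the lists shows, members of every list except the germinal centre programme lay on both sides of 0. Of the 17 ABC type genes, 1 lay above it. The medians stand beside -0.051 over all genes tested and are descriptions of lists chosen with results of these data known.

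Beyond these lists, the genes with the largest consistent pair differences included several with no place in the germinal centre lists. BMP7, a secreted ligand of the TGF-beta family, lay between 4.74 in HT and 12.07 in Pfeiffer, with a median of 10.96 in GCB DLBCL lines, and was 11.74 in Raji, 12.28 in Ramos and 13.47 in Daudi among BL lines. BMP7 in MCL lines lay between 4.55 in HBL-2 and 12.23 in Jeko-1, with a median of 4.96, and in ABC DLBCL lines it was 4.55 in HBL-1, 4.55 in OCI-Ly10, 4.70 in OCI-Ly3, 4.74 in SU-DHL-8 and 4.76 in MD903. All 5 ABC DLBCL lines were near 0 reads, HT was as low, and Jeko-1 and MAVER-1 were the high MCL lines. The difference was 5.73 ± 0.93 (SE), adjusted p = 0.00101. RGCC, a regulator of the cell cycle induced by complement, differed by 3.84 ± 0.72 (SE), adjusted p = 0.004, with the low value 5.52 in Toledo and the high value 10.09 in MD903. NCR3LG1 encodes B7-H6, a ligand of the activating receptor NKp30 of natural killer cells, and differed by 2.87 ± 0.56 (SE), adjusted p = 0.00535. NCR3LG1 was at 8.34 or above in all lines of germinal centre origin and exceeded that value in UPN1, Z-138 and HBL-1 on the other side.

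A pair of potassium channel genes was among the higher genes. KCNN3, a channel opened by calcium, was 11.48 ± 1.92 in GCB DLBCL and 12.06 ± 0.65 in BL lines, against 8.90 ± 1.74 in MCL and 6.41 ± 0.63 in ABC DLBCL lines (mean ± SD). Its difference was 4.11 ± 0.66 (SE), adjusted p = 0.00083. The ABC DLBCL lines were all at 7.20 or below, while MCL lines reached 11.03. KCNK12, a subunit of the tandem-pore family, differed by 3.73 ± 0.79 (SE), adjusted p = 0.00996, and its adjusted p was 0.0506 without Ramos. RBFOX2, a splicing factor, differed by 3.33 ± 0.84 (SE), adjusted p = 0.0287, and LINC00487, a long noncoding RNA, by 2.78 ± 0.61 (SE), adjusted p = 0.0131. RBFOX2 kept its call in 18 of 25 fits that each left out a line and in 11 of 12 other settings, and LINC00487 in 24 of 25 fits that each left out a line and in 10 of 12 other settings. Both calls were lost without Daudi, with adjusted p-values of 0.0961 for RBFOX2 and 0.0806 for LINC00487. LINC00487 was at or near 0 reads in all 16 MCL and ABC DLBCL lines, and also in Toledo and Ramos.

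LTB encodes lymphotoxin beta, a TNF-family ligand through which B cells organise follicular stroma. LTB lay between 9.47 in Toledo and 14.05 in Pfeiffer, with a median of 11.91 in GCB DLBCL lines, and was 10.65 in Ramos, 12.29 in Raji and 12.36 in Daudi among BL lines. LTB in MCL lines lay between 5.43 in Jeko-1 and 12.47 in REC-1, with a median of 7.73, and in ABC DLBCL lines it was 7.06 in SU-DHL-8, 7.22 in MD903, 7.46 in OCI-Ly10, 9.53 in HBL-1 and 12.18 in OCI-Ly3. REC-1 and OCI-Ly3 were as high as Daudi, Mino, SP-53 and HBL-1 were above Toledo, and the difference was 3.41 ± 0.82 (SE), adjusted p = 0.0233, lost without Raji (adjusted p = 0.0635) or Daudi (0.0804).

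Among the genes lower in lines of germinal centre origin by the same rule, PDCD1, the inhibitory receptor PD-1, was at 6.11 or below in all lines of germinal centre origin. PDCD1 in MCL lines lay between 6.29 in MAVER-1 and 11.23 in SP-49, with a median of 8.92, and in ABC DLBCL lines it was 4.88 in SU-DHL-8, 8.55 in MD903, 9.52 in OCI-Ly3, 10.88 in OCI-Ly10 and 11.91 in HBL-1. SU-DHL-8 was the 1 line of the other side among those of germinal centre origin. The difference was -3.98 ± 0.69 (SE), adjusted p = 0.00201, and without SU-DHL-8 the adjusted p was 6.4e-05. Voom did not call PDCD1 (adjusted p = 0.118). TNFRSF1B, the TNF receptor TNFR2, differed by -3.73 ± 0.87 (SE), adjusted p = 0.0182, and the call was lost without Ramos (0.0549) or Daudi (0.0698).

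MARCKS, a substrate of protein kinase C that links actin to the membrane, lay between 4.74 in HT and 13.07 in Pfeiffer, with a median of 5.84 in GCB DLBCL lines, and was 4.89 in Daudi, 5.25 in Ramos and 5.90 in Raji among BL lines. MARCKS in MCL lines lay between 11.25 in MAVER-1 and 14.18 in REC-1, with a median of 12.61, and in ABC DLBCL lines it was 4.76 in MD903, 11.98 in OCI-Ly10, 12.86 in OCI-Ly3, 13.04 in HBL-1 and 13.14 in SU-DHL-8. Toledo and Pfeiffer were as high as MCL lines and MD903 was as low as BL lines, so single lines crossed the divide in both directions. The difference was -5.41 ± 1.01 (SE), adjusted p = 0.004, and voom gave an adjusted p of 0.225. MARCKS passed without MD903 (0.000163), Pfeiffer (0.000525) or Toledo (0.0011). VIM, the intermediate filament protein vimentin, differed by -4.94 ± 1.18 (SE), adjusted p = 0.0219. VIM was at 12.31 to 13.75 in Raji, HT and Toledo and at 7.19 or below in the other lines of germinal centre origin, and at 6.08 in HBL-1. Its call was lost without Ramos (adjusted p = 0.0828) or Daudi (0.099). The VIM call was also lost with voom and in the re-analysed lines.

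AHNAK, a giant scaffold protein of the membrane cytoskeleton, differed by -4.55 ± 1.04 (SE), adjusted p = 0.0166, and without Daudi its adjusted p was 0.0524. ARHGAP31, which switches off the GTPases Rac and Cdc42, differed by -3.65 ± 0.65 (SE), adjusted p = 0.00261, and PARP15, an ADP-ribosyltransferase, by -4.62 ± 0.61 (SE), adjusted p = 0.000127. PARP15 was lower in BL than in GCB DLBCL lines, with 5.26 ± 0.79 in BL and 8.06 ± 2.10 in GCB DLBCL (mean ± SD), a difference that was not tested. PLBD1, a phospholipase B domain protein, differed by -3.89 ± 1.04 (SE), adjusted p = 0.0413, with 11.38 in Pfeiffer and 0 reads in SU-DHL-8. The adjusted p of PLBD1 was 0.0076 without Pfeiffer and 0.00923 without SU-DHL-8, but it kept its call in only 8 of 25 fits that each left out a line and in 8 of 12 other settings, with 0.108 without Daudi. The AHNAK and PLBD1 calls were lost with voom (adjusted p = 0.27 for AHNAK and 0.299 for PLBD1). ARHGAP31 passed with every line left out in turn, but its call too was lost with voom.

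**Figure D5:**
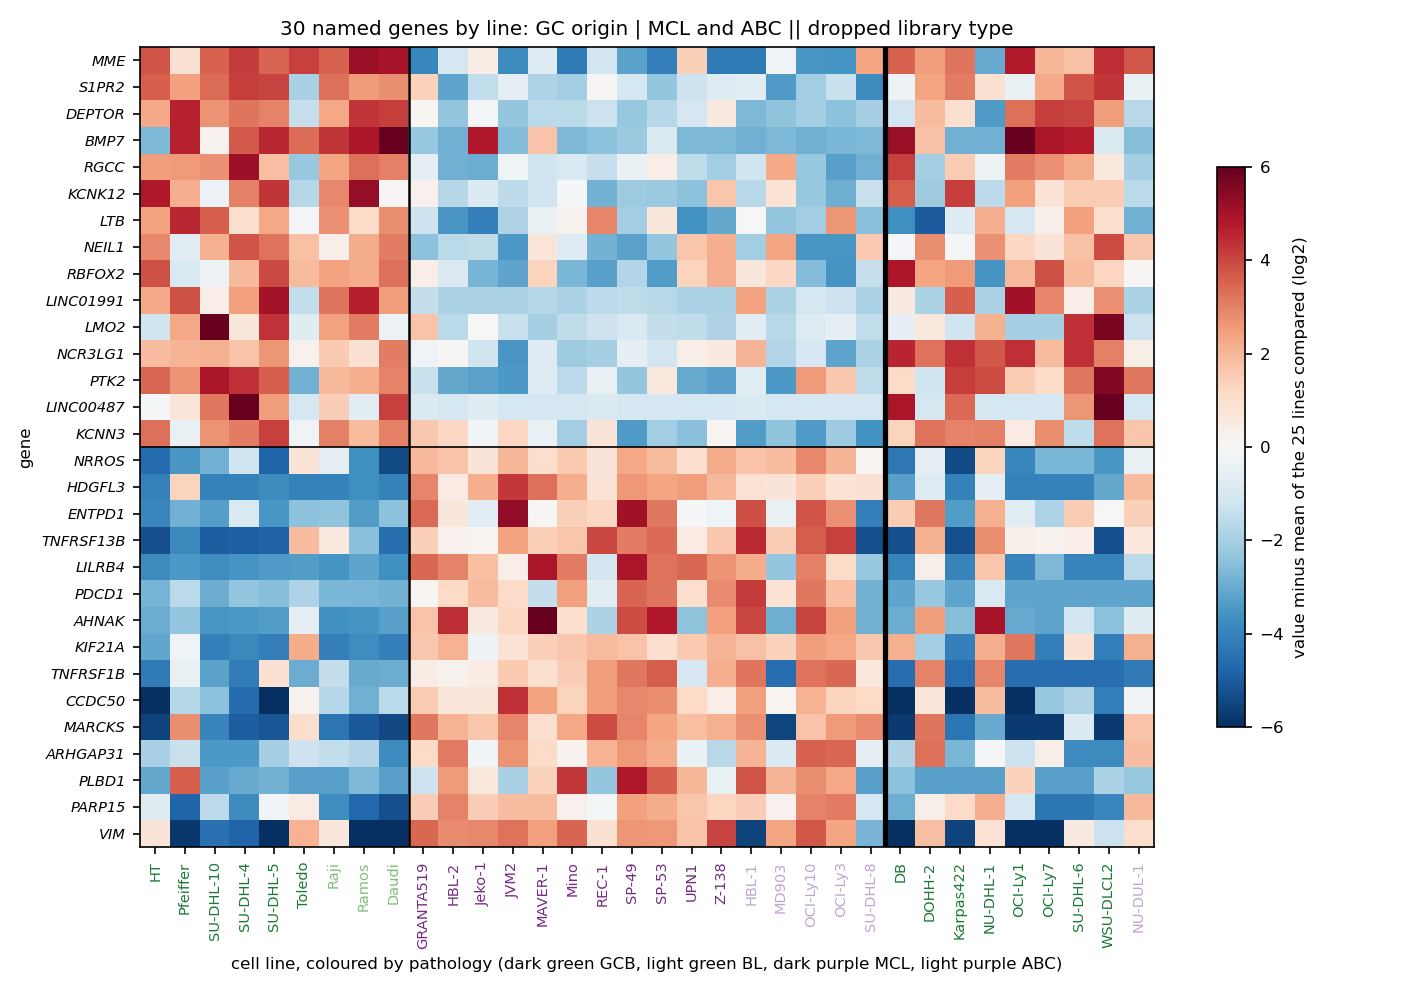
Heat map of the 15 genes higher and 15 genes lower with the largest consistent pair differences (vertical) in the 25 lines of the comparison and in the 9 lines of the other library kind (horizontal, set apart at the right), coloured by level in log2 units. The blocks of high and low levels are interrupted by Toledo and Pfeiffer among the lines of germinal centre origin and by SU-DHL-8 and MD903 among ABC DLBCL lines.

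The heat map sets the 30 genes beside each other and shows that no line followed every gene. Of the 56 named genes that were called, 34 passed with voom, 43 over all 34 lines and 29 in the re-analysed lines, and 29 passed with each of the 25 lines left out in turn, and 17 also passed under all 12 other settings. The 17 were MME, S1PR2, DEPTOR, MYBL1, BMP7, RGCC, LINC01991, NCR3LG1, KCNN3, NRROS, HDGFL3, KIF21A, LIMD1, MLKL, CCDC50, PARP15 and S1PR1.

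Promoters of LILRB4 and LTB are shown as 1 example of each direction that holds letters of the motifs searched, and like that of BCL6 they come from RefSeq on GRCh38.p14. The LILRB4 window is chr19:54662735-54662984 on the plus strand. Its capitals mark 2 matches of the composite bound by ETS and IRF factors (GGAA, any 2 bases, GAAA), as GGAAATGAAA 133 to 124 bases before the start and, on the other strand, as TTTCCCTTCC 96 to 87 bases before it.
LILRB4 promoter: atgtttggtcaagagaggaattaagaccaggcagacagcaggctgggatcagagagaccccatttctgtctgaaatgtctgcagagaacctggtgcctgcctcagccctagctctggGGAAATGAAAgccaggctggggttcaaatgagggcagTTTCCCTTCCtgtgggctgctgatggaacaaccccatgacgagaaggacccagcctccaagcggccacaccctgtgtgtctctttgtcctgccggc
The LTB window is chr6:31582425-31582674 on the minus strand. Its capitals mark TTCAGAGAA, a match of TTCNNNGAA, 166 to 158 bases before the start, GGAAAGTCCC, a match on the other strand of the NF-kB letters (GGG, any 2 bases, TTTCC), 87 to 78 bases before it, and the E-box CAGGTG 74 to 69 bases before it.
LTB promoter: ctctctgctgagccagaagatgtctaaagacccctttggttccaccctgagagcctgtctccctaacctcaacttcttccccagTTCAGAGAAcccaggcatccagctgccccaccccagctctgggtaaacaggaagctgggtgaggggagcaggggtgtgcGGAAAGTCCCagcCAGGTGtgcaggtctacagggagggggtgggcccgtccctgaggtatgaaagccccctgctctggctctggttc
The ETS and IRF composite was found on either strand in 0.866% of promoter windows of genes called higher, 1.99% of those called lower and 2.16% of all tested, and the NF-kB letters in 1.73%, 2.48% and 1.88%. The interferon-stimulated response element (GAAA, any 2 bases, GAAA) was in 2.16%, 4.47% and 2.58%, and CAGGTG in 18.2%, 18.1% and 16.4%. The windows covered 151 of the genes called higher, 226 of those called lower and 12284 of all tested, and the shares were not tested.

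The 9 lines left out gave a look at the same genes in libraries that the choice had not used, although at 2.55 to 4.84 Mreads in the 8 GCB DLBCL lines and 22.7 Mreads in NU-DUL-1. With a lone ABC DLBCL line, assumed to vary like the GCB DLBCL lines, limma called 13 of 18541 genes (0.0701%), and 855 at an unadjusted p under 0.05. Of the genes called with the same direction in the 25 lines, 194 of the higher ones could be tested, and 127 (65.5%) had GCB DLBCL above NU-DUL-1, against 54.9% of all genes tested. Of the lower ones, 261 could be tested, and 200 (76.6%) had GCB DLBCL below NU-DUL-1, against 45.1% of all. None of these genes was called: limma gave 0 after adjustment, with 5 of the higher and 17 of the lower at an unadjusted p under 0.05, and the recovered reads were not fitted for these libraries. Their median differences were 0.49 for the higher and -1.09 for the lower genes, against 0.095 for all.

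Single genes held or turned in those lines. S1PR2 lay between 8.54 in OCI-Ly1 and 13.20 in WSU-DLCL2, with a median of 11.25 in the 8 GCB DLBCL lines, against 8.53 in NU-DUL-1. HDGFL3 lay between 4.55 in Karpas422 and 8.05 in NU-DHL-1, with a median of 4.94 in the GCB DLBCL lines, against 10.50 in NU-DUL-1, which was above all of them. MME lay between 6.05 in NU-DHL-1 and 13.83 in OCI-Ly1, with a median of 11.94 in the GCB DLBCL lines, against 12.77 in NU-DUL-1, a level above their median, so MME did not keep its direction there. GNA13 likewise was 13.91 in NU-DUL-1, within the range of the 8 lines, which lay between 11.42 in NU-DHL-1 and 14.75 in Karpas422, with a median of 13.73. IRF4 was 14.57 in NU-DUL-1, above all 8, but 5 of them were at 12.51 or higher. By the share of genes nearer to the mean of the germinal centre side, WSU-DLCL2 gave 82.5%, against 60.1% of all genes tested, OCI-Ly7 75.8%, against 57.1%, and NU-DUL-1 38.2%, against 51.4%. DOHH-2 gave 38.8%, against 50.7%, and NU-DHL-1 31.8%, against 48.0%, lower than the other 6 GCB DLBCL lines left out, which all gave 59.45% or more.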

How the data were processed

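The authors deposited a single table of 31975 genes in 34 lines, whose log2 values are read counts after a variance-stabilising transform. The submitters' processing notes list GRCh38 as the build, and as tools DESeq2 1.26.0, STAR 2.5.3a and R 3.6.1, with no role for each. The read counter, the annotation release and the strand setting are not given in the sources used here, so reads of a gene and an antisense partner cannot be told apart. Per the labels' protocols, total RNA libraries were sequenced by Illumina protocols on more than 1 occasion. The occasion of each library is not given there, so such batches could not be compared. Inverting the transform gave whole numbers of reads for 100% of values within a tolerance of 0.05, and these served for depths and for voom. No column was left unmapped.

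A gene was tested if its level in at least 3 of the 25 lines was over 1 log2 unit above that of 0 reads. In R 4.3.3, limma 3.58.1 with its trend option fitted a mean for each pathology. The mean of the GCB DLBCL and BL means minus the mean of the MCL and ABC DLBCL means was tested, with Benjamini-Hochberg adjustment over all genes and a threshold of 0.05. Differences carry limma's SE. The fit was tested on simulated reads with known changes. Tables and figures used Python 3.11.15, NumPy 2.4.6, pandas 2.3.3, SciPy 1.17.1 and matplotlib 3.10.9. A line was placed by the share of genes for which it was nearer to either side's mean.

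Named genes were the 15 higher and 15 lower called genes with the largest of the smallest absolute pair differences, called members of the gene lists, list members named for their level, CCND1, SOX11, CXCR4 and ZNF593. MLKL, BMI1, PIMREG, CNN3 and RNF213 fall outside this rule, and these and the list members named without a call were chosen after their values were seen. Symbols were matched for 31574 identifiers. The members and lists were chosen with earlier results of these data known, and a few list genes are not reported here. Alternatives covered scaling, filters, the limma settings, voom, a pooled contrast, all 34 lines, the re-analysed lines and each line left out. Chromosomes, coordinates and promoter windows of 250 bases came from RefSeq on GRCh38.p14, and 5 motifs were searched on both strands.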

Additional observations from a re-analysis of the deposited data

Results flagged for a closer look

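Single lines far from the others of their pathology were looked for by Dixon's criterion in groups of 4 to 10 lines, which covers GCB DLBCL and ABC DLBCL. Of 150 combinations of gene and pathology tested, 22 held such a line. The criterion's chance rate of about 1 in 20 holds for normally spread values of genes picked without regard to them. Some flagged genes, CD27, MEF2B, GPR183 and BATF among them, were named after their values were seen. In some flagged groups, such as LINC00487 and SOX11 in ABC DLBCL, most lines had no reads. The count therefore cannot be set against that rate, and no excess is concluded from it.

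Toledo was the line in question for 8 of the genes. Among GCB DLBCL lines it was far below the others for S1PR2 at 6.95, PTK2 at 5.13, BCL6 at 9.93, CD27 at 5.46 and MEF2B at 4.94. It was far above them for TNFRSF13B at 11.66, S1PR1 at 9.92 and IRF7 at 10.28. Each of these departures points towards the levels of MCL lines.

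Pfeiffer was the line for 5 genes. It was far below the other GCB DLBCL lines for MME at 9.98 and far above them for HDGFL3 at 9.92, PLBD1 at 11.38, GPR183 at 12.88 and BATF at 12.98. SU-DHL-5 held SOX11, the MCL marker, at 6.87, where the other GCB DLBCL lines were at 4.76 or below.

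Among ABC DLBCL lines, HBL-1 was far above the others for LINC01991 at 8.86, LINC00487 at 4.75 and SOX11 at 8.39, of which 4.75 is the value of 1 read in that line. OCI-Ly10 was far above for HDGFL3 at 10.01, where the other 4 lay between 9.34 and 9.49, and for IRF7 at 12.08. SU-DHL-8 was far above for CCND3 at 15.99 and far below for PLBD1 at 4.55. MD903 was far below for MARCKS at 4.76. No cause was tested.

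Whether GCB DLBCL differed from ABC DLBCL unequally in the 2 kinds of library was fitted as an interaction with limma over 17433 genes. In the kind left out, that difference rested on the lone ABC DLBCL line NU-DUL-1, so no conclusion is drawn from the fit.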

How the results depend on the processing

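None of the 75 named genes tabulated changed sign in the comparison under any setting tried over 21 lines or more. With limma-voom on the recovered reads 251 genes were called, 245 of them with the same direction in all 4 pairs and 0 in each of the 4 pairs, where 197 passed at an unadjusted p under 0.05 in each. In the re-analysed lines alone, which hold 2 of the 3 BL lines, the counts were 153, 144 and 0, with 161 at an unadjusted p. With the 25 lines these were 530, 513 and 12, with 264 at an unadjusted p. Genes passing in each pair numbered 4 over all 34 lines and 3 with the library kind as a covariate. With each line left out in turn, calls ranged from 213 to 755, calls of the same direction from 204 to 731, and genes passing in each pair from 0 to 31. Both lowest call counts were without Daudi, the shallowest of the 25 and 1 of 3 BL lines. In the lines left out of the comparison, a stricter filter gave 8 calls against 13, and leaving out a line gave 7 to 15. The other settings kept these counts within 1.5 times, but the higher calls alone, 222 with the 25 lines, numbered 463 with each line centred on its median and 360 with quantile normalization. Treating SP-49 and SP-53 as 1 line, an alternative chosen after seeing the data, gave 465 calls. Over 75 named genes, the side of the threshold was kept by 50 with voom, 48 in the re-analysed lines, 58 over all lines, 66 in a pooled contrast and 68 without the filter, and by at least 69 under each other setting that keeps all 25 lines. No paired analysis was possible, because each line was sequenced as 1 library and the labels pair no lines. Daudi and the lines left out were the shallowest, and 3 BL and 5 ABC DLBCL lines limit what the pairs that include them can call.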

Other observations

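The genes called in the comparison that did not keep 1 direction in all 4 pairs numbered few, and some of them were large differences of a single pathology. PIMREG, a regulator of mitosis, was 4.59 ± 0.10 in GCB DLBCL and 4.67 ± 0.20 in BL lines, against 10.02 ± 0.82 in MCL lines, and it had 0 reads in all 5 ABC DLBCL lines. Its difference was -2.65 ± 0.27 (SE), with the smallest adjusted p of all genes in the limma fit (1.2e-05), although it was set by MCL alone. CNN3, the actin-binding protein calponin 3, had the same form, with pairs of -5.76 and -6.09 against MCL and of 0.28 and -0.05 against ABC DLBCL. RNF213, a ubiquitin ligase induced by interferon, was lower in BL lines, with pairs of -2.33 against MCL and -3.63 against ABC DLBCL, while GCB DLBCL minus MCL was near 0. The list of called genes in the comparison therefore holds genes of 1 pathology as well as genes shared by both pathologies of a side. PIMREG, CNN3 and RNF213 were not among the named genes followed under the other settings. Why PIMREG, a regulator of mitosis, was near 0 reads in the lines other than MCL was not tested.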
